A study of Mus musculus with 8 samples.

Results

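The genes described are the 10 members of the Cacna1 family, which encode the pore-forming alpha-1 subunits of voltage-gated calcium channels. All 10 family rows of the deposited table were taken, out of 46955 genes in it. RNA was sequenced from islet cells of adult mice, sorted by flow cytometry into 3 groups. Transdifferentiated cells (2 libraries, 1 male and 1 female) were positive for both a nuclear mCherry reporter driven by the Ins1 promoter (Ins1-H2b-mCherry) and a YFP label switched on by Gcg-cre from a floxed allele, which marks alpha cell descent. Alpha cells (3 libraries, 2 male and 1 female) carried the lineage label, and beta cells (3 libraries, 1 male and 2 female) the Ins1 reporter. The animals of all groups are described as triple transgenic for these alleles, although the design text also speaks of bitransgenic females without naming libraries. Each library pooled the islets of 10 to 12 animals of 1 sex, which had been kept overnight in medium with 5.5 mM glucose. The groups are thus defined by Ins1 promoter activity and Gcg-cre history, not by any calcium channel gene.

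Voltage-gated calcium channels open when the membrane depolarises and let calcium into the cell. In pancreatic islet cells, electrical activity opens these channels and the calcium that enters triggers the release of insulin from beta cells and of glucagon from alpha cells. The alpha-1 subunit forms the pore and sets the channel class. L-type channels are encoded by Cacna1c, Cacna1d, Cacna1f and Cacna1s, the P/Q-, N- and R-type channels of nerve terminals by Cacna1a, Cacna1b and Cacna1e, and the low-voltage-activated T-type channels, which open near the resting potential, by Cacna1g, Cacna1h and Cacna1i. Cacna1c and Cacna1d are the L-type genes best known from islet cells, Cacna1s is the channel of skeletal muscle and Cacna1f that of the retina.

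Depth differed strongly between groups. Reads recovered from the steps of the deposited RPKM values (reads per kilobase of gene length and library size) summed to 1244232 and 2167334 in the male and female transdifferentiated libraries, to between 12911924 and 14094481 in the alpha libraries and to between 14336674 and 21395333 in the beta libraries. The sorted identities were visible in markers. Summed RPKM of 6 beta cell markers was 108000 to 118000 in transdifferentiated, 1040 to 1370 in alpha and 148000 to 202000 in beta libraries, and that of 6 alpha cell markers was 20200 to 20300, 176000 to 204000 and 620 to 1960 in the same order of groups. Markers of other islet cells were also present. The sum of 5 delta cell markers, led by Sst, was 2970 to 3100 in transdifferentiated, 1370 to 3200 in alpha and 312 to 891 in beta libraries, and the sum of the pancreatic polypeptide cell markers Ppy and Pyy was 8250 to 11400, 7960 to 13000 and 589 to 1270. The sum of 6 immune markers was 5.37 to 21.5 in transdifferentiated, 2.62 to 3.46 in alpha and 65.5 to 77.8 in beta libraries, and the sum of 4 duct markers, nearly all Spp1, was 183 to 228, 668 to 1690 and 184 to 314. The sum of 5 acinar markers ran from 30.4 to 2050 within the alpha and from 94.1 to 2780 within the beta libraries, against 254 to 714 in the transdifferentiated ones. Endothelial markers summed to at most 10.7, neural and Schwann cell markers to at most 8.43 and stromal and smooth muscle markers to at most 2.71 in any library; Sox10 was at 0 in all transdifferentiated and alpha libraries and Acta2 in all transdifferentiated and beta libraries. In bulk RNA such as this, fewer cells of a type and less RNA per cell cannot be told apart.

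The start sites of the family differed widely in CpG content, and 5 windows are shown. These come from the gene with the highest RPKM in every group (Cacna1d, both of its annotated starts), from Cacna1b, and from the L-type genes with the lowest RPKM (Cacna1f and Cacna1s). Each window runs from 250 bases before to 50 bases after an annotated start, in the RefSeq table for build GRCm38.p6, 5′ to 3′ on the gene's strand, with each CpG in capitals.
Cacna1d, chr14:30353437-30353736, minus strand: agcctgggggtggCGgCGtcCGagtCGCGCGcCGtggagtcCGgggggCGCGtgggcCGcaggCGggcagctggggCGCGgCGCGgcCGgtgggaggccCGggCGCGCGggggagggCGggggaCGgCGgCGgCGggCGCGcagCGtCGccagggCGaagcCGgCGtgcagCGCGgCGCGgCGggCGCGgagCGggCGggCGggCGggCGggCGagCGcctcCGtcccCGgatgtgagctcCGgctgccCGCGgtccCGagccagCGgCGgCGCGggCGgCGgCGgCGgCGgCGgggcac
Cacna1d, chr14:30491107-30491406, minus strand: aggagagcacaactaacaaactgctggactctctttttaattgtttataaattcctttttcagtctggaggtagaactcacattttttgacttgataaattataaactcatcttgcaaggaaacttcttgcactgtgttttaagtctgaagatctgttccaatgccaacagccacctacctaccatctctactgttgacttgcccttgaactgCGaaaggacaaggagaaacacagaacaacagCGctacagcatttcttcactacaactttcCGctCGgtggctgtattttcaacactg
Cacna1b, chr2:24763103-24763402, minus strand: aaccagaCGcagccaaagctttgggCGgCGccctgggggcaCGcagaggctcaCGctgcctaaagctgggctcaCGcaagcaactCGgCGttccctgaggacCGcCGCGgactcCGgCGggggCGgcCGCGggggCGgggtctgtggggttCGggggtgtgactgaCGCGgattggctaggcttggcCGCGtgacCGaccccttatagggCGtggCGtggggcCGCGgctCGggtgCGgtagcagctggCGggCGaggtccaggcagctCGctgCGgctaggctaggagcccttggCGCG
Cacna1f, chrX:7606853-7607152, plus strand: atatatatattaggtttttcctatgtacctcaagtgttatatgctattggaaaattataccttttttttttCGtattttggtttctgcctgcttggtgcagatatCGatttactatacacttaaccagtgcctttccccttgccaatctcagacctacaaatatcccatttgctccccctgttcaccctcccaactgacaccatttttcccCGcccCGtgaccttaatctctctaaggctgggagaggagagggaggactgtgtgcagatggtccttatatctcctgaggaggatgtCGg
Cacna1s, chr1:136052561-136052860, plus strand: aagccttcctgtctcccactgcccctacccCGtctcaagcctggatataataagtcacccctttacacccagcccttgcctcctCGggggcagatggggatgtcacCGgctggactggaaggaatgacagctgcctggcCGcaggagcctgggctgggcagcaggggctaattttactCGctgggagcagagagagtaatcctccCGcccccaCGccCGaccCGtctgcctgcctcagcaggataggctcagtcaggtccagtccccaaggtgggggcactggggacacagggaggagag

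The first Cacna1d window held 63 CpGs, a number reached by 0.0304% of the 32851 windows in the table, while the second held 4, a number reached by 68.6% of them. The Cacna1b window held 35 (6.95% of windows have at least as many), the Cacna1s window 9 (45.8%) and the Cacna1f window 5 (62.0%), against a median of 7 over all windows. The motif counted was CG, which reads the same on both strands. The windows not shown held 57, 7 and 3 CpGs (Cacna1c), 23 (Cacna1i, a gene with low RPKM in every group) and 11 (Cacna1e). Whether CpG content goes with level was not tested. Windows were found for 7 of the 10 genes, and the RNA values do not say which start is used.

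Among the 10 genes, Cacna1d, Cacna1a and Cacna1c had the highest RPKM in every group, and the mean RPKM of each of the 3 T-type genes was lower in beta cells than in transdifferentiated and alpha cells. Cacna1g was higher in transdifferentiated than in beta cells, 7.64 times as a ratio of mean RPKM, and higher in alpha than in beta cells, 9.69 times. Cacna1a was higher in transdifferentiated than in beta cells, 1.79 times, and Cacna1b was higher in alpha than in beta cells, 1.48 times. No member passed the test between transdifferentiated and alpha cells. A gene entered the test with at least 1 RPKM in at least 2 libraries, which 5 of the 10 members reached (Cacna1a, Cacna1b, Cacna1c, Cacna1d and Cacna1g). A gene was called where limma's adjusted p on log2(RPKM + 0.5) was under 0.05, in a fit of all 13172 such genes with cell group and sex as terms.

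Of the 5 tested, 2 were called in transdifferentiated against beta cells, both higher, where 12% of all genes tested were called (9.1% higher). Against alpha cells 0 of 5 were called in transdifferentiated cells, where 29.9% of all genes were; at an unadjusted p under 0.05 the count was also 0, as it was by limma voom on recovered reads. In alpha against beta cells 2 of 5 were called, both higher, where 43.6% of all genes were called (16.9% higher). That share is close to the members' own. The comparisons share their libraries and are not independent of each other. The median log2 difference of the 5 members was 0.47 between transdifferentiated and beta, 0.00 between transdifferentiated and alpha and 0.44 between alpha and beta cells, beside medians of 0.09, 0.17 and -0.05 over all genes tested. Cacna1g, under 1 RPKM in every beta library, entered the test only through its transdifferentiated and alpha values, so these counts and medians are a description.

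**Figure D1:**
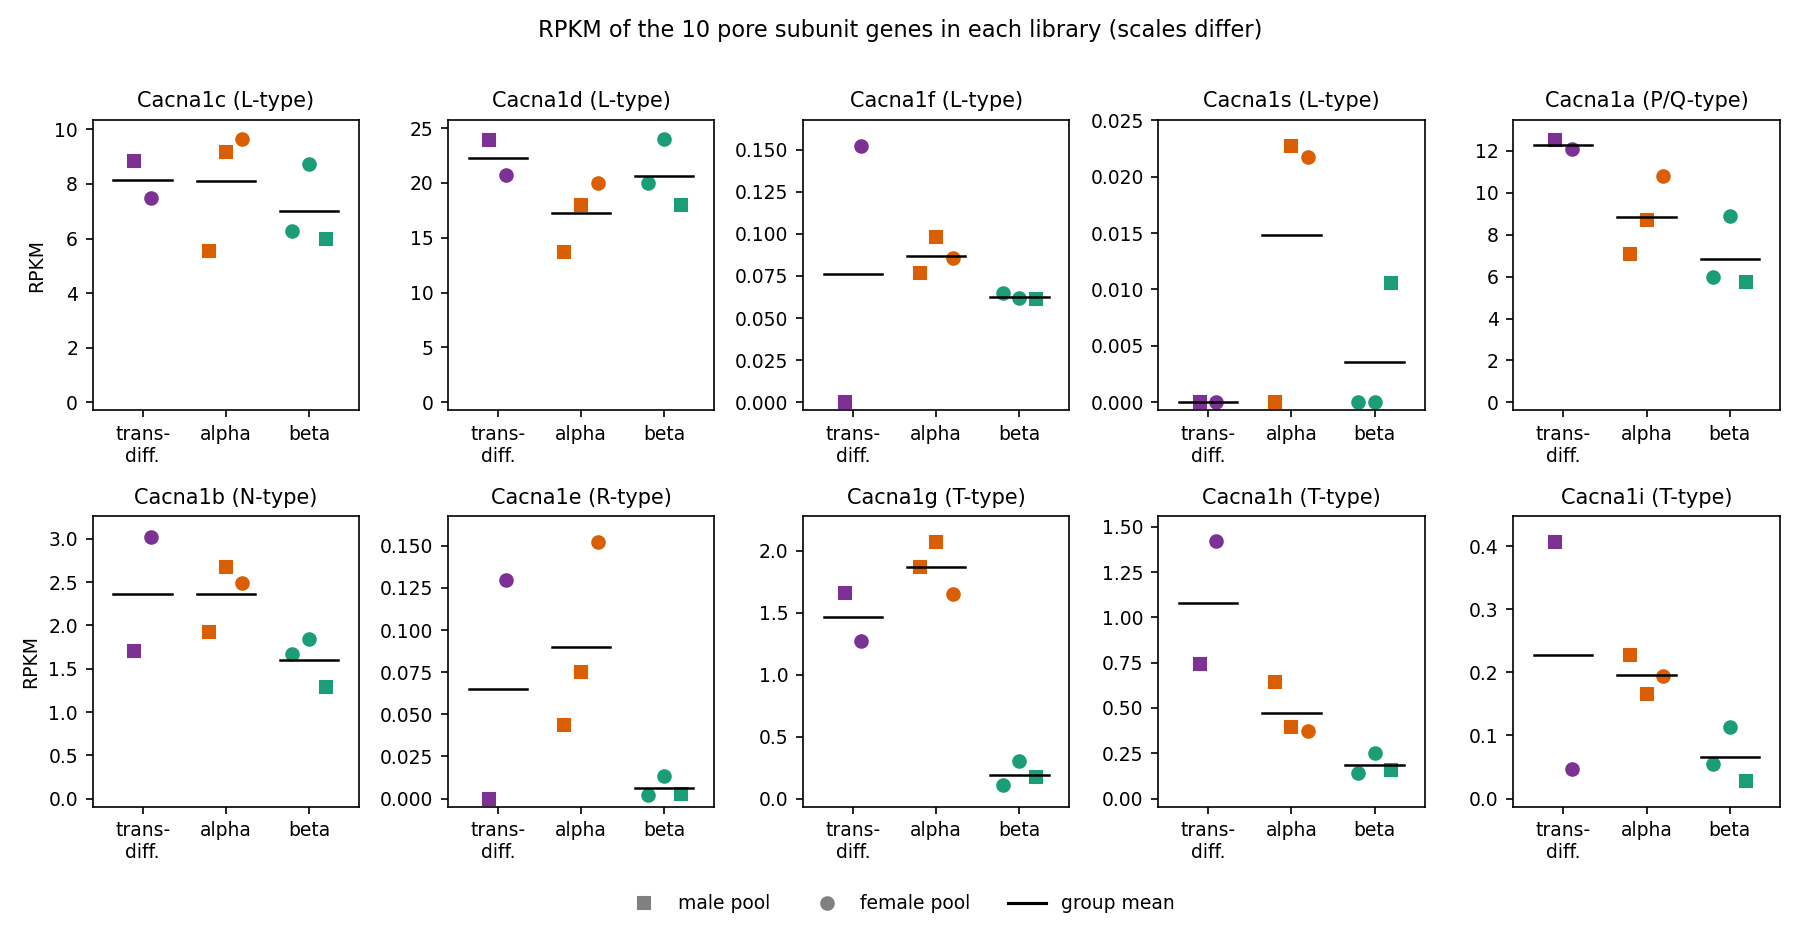
RPKM (vertical axes, each from 0 on its own scale) of the 10 genes in the 2 transdifferentiated, 3 alpha and 3 beta libraries; squares are male pools, circles female pools, lines group means. Cacna1g lies between 1.27 and 2.07 RPKM in all transdifferentiated and alpha libraries and at most at 0.3 in beta libraries.

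Cacna1d (chromosome 14, 30039939 to 30491455 on the minus strand of GRCm38), an L-type gene whose channels open at relatively negative voltages, had the highest RPKM of the family in every library. It stood at 23.9 and 20.7 RPKM in the male and female transdifferentiated libraries, at 13.7, 18.0 and 20 RPKM in alpha libraries 1 to 3, and at 20, 24.0 and 18.0 RPKM in beta libraries 1 to 3. Both transdifferentiated values lay above all alpha values and within the range of the beta values. The log2 difference was 0.35 (SE 0.17, adjusted p = 0.177) between transdifferentiated and alpha, 0.14 (adjusted p = 0.613) between transdifferentiated and beta and -0.20 (adjusted p = 0.335) between alpha and beta cells. None of these passed the test, and the 95% interval of the difference between transdifferentiated and beta cells ran from -0.27 to 0.55. The difference between transdifferentiated and alpha cells depended on scaling. It ran from 0.07 to 0.58 over 22 alternatives, beside a median of 0.17 over all genes in the main fit. The counting rested on 275 and 414 reads in transdifferentiated libraries, against 1638 to 2608 in alpha and 2383 to 4751 in beta libraries. Its exons share 4.67% of their annotated bases with Chdh on the other strand, and the library kit does not mark strand.

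Cacna1c (chromosome 6, 118587240 to 119196418, minus strand), the L-type gene of heart and smooth muscle that is also widely expressed in islets, did not separate the groups. Its level was 8.84 and 7.47 RPKM in transdifferentiated, 5.53, 9.19 and 9.65 RPKM in alpha and 6.29, 8.75 and 5.97 RPKM in beta libraries, so the 3 ranges overlapped. The log2 difference was 0.01 (95% interval -0.59 to 0.60, adjusted p = 0.991) between transdifferentiated and alpha and 0.25 (-0.34 to 0.84, adjusted p = 0.530) between transdifferentiated and beta cells. RPKM divides by a gene length of 21191 bases for this gene, more than for Cacna1d (9242 bases). Despite the lower RPKM, Cacna1c gave 15860 reads over all libraries, against 17745 for Cacna1d. In the alpha libraries together it gave more reads than Cacna1d, 7013 against 6481. The order of Cacna1c and Cacna1d in alpha cells thus depends on the division by gene length.

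The remaining L-type genes were near the counting limit. Cacna1f (chromosome X, 7607083 to 7635196) had 0 and 3 reads in transdifferentiated, 9 to 12 in alpha and 8 to 12 in beta libraries, which is 0 and 0.152, 0.0767 to 0.0983 and 0.0614 to 0.0649 RPKM. Its 0 in the male transdifferentiated library allows up to 0.265 RPKM (3 reads), above every other value. Cacna1s (chromosome 1, 136052750 to 136119822) gave 0 reads in both transdifferentiated libraries, 4 in the alpha libraries together and 1 in the beta libraries together, and 20% of its exon bases are shared with an antisense gene. At this depth no difference in Cacna1f or Cacna1s was detectable in transdifferentiated cells.

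Cacna1a (chromosome 8, 84388440 to 84640246), the P/Q-type gene, was higher in transdifferentiated than in beta cells. It measured 12.5 and 12.1 RPKM in the male and female transdifferentiated libraries, 7.10, 8.68 and 10.8 RPKM in alpha libraries 1 to 3 and 5.97, 8.89 and 5.72 RPKM in beta libraries 1 to 3. Both transdifferentiated libraries exceeded all 6 others, while the alpha and beta ranges overlapped. An antisense gene shares 3.81% of its exon bases. Group means were 12.3 ± 0.266 RPKM (SD, n = 2), 8.87 ± 1.87 RPKM (n = 3) and 6.86 ± 1.76 RPKM (n = 3) in transdifferentiated, alpha and beta cells. The log2 difference between transdifferentiated and beta cells was 0.87 (SE 0.19, adjusted p = 0.0337). Between transdifferentiated and alpha cells it was 0.42 (95% interval -0.04 to 0.88, adjusted p = 0.145), and between alpha and beta cells 0.44 (SE 0.18, adjusted p = 0.0836). With median-ratio scaling the limma difference between transdifferentiated and alpha cells was 0.20 (adjusted p = 0.431).

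The Cacna1a call against beta cells is not firm. It was lost without the male transdifferentiated library (0.67, adjusted p = 0.136), beta library 1 (0.74, adjusted p = 0.0856), beta library 3 (0.83, adjusted p = 0.128), alpha library 2 (0.87, adjusted p = 0.0626) or alpha library 3 (0.85, adjusted p = 0.0575), and it was kept in 13 of 22 alternatives. Both transdifferentiated libraries lack the letter b that the titles of 4 other libraries carry; among libraries without it Cacna1a averaged 12.3 RPKM in transdifferentiated cells (2 libraries), against 7.10 RPKM in alpha and 5.97 RPKM in beta cells (1 library each). Delta and pancreatic polypeptide cell markers were also higher in transdifferentiated than in beta libraries, as given above, and their part in this difference was not tested.

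Cacna1b (chromosome 2, 24603887 to 24763152, minus strand), the N-type gene, was higher in alpha than in beta cells, at 1.92, 2.68 and 2.49 RPKM in alpha libraries 1 to 3, against 1.67, 1.84 and 1.29 RPKM in beta libraries 1 to 3. The ranges did not overlap, but the lowest alpha value lay within 0.1 RPKM of the highest beta value. The log2 difference was 0.56 (SE 0.19, adjusted p = 0.0474). It passed the test in 8 of 21 alternatives and was lost when any 1 of the 6 alpha and beta libraries was left out (adjusted p 0.0627 to 0.163). The male and female transdifferentiated libraries, at 1.70 RPKM (21 reads) and 3.02 RPKM (65 reads), lay within the beta range and above all other libraries. Their difference was 0.47 (adjusted p = 0.166) from beta and -0.09 (adjusted p = 0.778) from alpha cells. On the line between the beta and alpha means they stood at 12.7% and 185%.

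Cacna1e (chromosome 1, 154390731 to 154884501, minus strand), the R-type gene, was rare, and it missed the expression limit of the test. Alpha libraries held 14, 25 and 53 reads (0.0437, 0.0750 and 0.152 RPKM), against 1, 7 and 1 reads in beta libraries (0.00216, 0.0132 and 0.00281 RPKM). The female transdifferentiated library held 7 reads (0.130 RPKM) and the male one 0, a count that allows up to 0.0972 RPKM. The values of the alpha libraries thus all lay above those of the beta libraries, and the transdifferentiated pair covered both. With the limit lowered to 0.1 RPKM and limma voom on recovered reads, an alternative added after the data were seen, the log2 difference between alpha and beta cells was 4.33 (SE 0.55, adjusted p = 0.000121); by limma on log2(RPKM + 0.5) at the same limit it was 0.28 (adjusted p = 0.136). Cacna1e met that limit only through alpha library 3 and the female transdifferentiated library, so a lower beta value was partly fixed by the limit.

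Cacna1g (chromosome 11, 94408391 to 94474198, minus strand), a T-type gene, set beta cells apart from both other groups. Its level was 1.66 and 1.27 RPKM in the male and female transdifferentiated libraries, 1.87, 2.07 and 1.65 RPKM in alpha libraries 1 to 3 and 0.106, 0.3 and 0.172 RPKM in beta libraries 1 to 3. Every transdifferentiated and alpha value lay above every beta value, and the transdifferentiated and alpha ranges overlapped. The log2 difference was 1.49 (SE 0.24, adjusted p = 0.0144) between transdifferentiated and beta cells, 1.73 (SE 0.22, adjusted p = 0.000878) between alpha and beta cells, and -0.25 (95% interval -0.80 to 0.31, adjusted p = 0.481) between transdifferentiated and alpha cells. Cacna1g passed the expression limit only through its transdifferentiated and alpha values, so a lower beta value was partly fixed by the limit. Both calls against beta cells were kept in a fit without an expression limit. The added 0.5 RPKM shrinks differences of such low values. On recovered reads with limma voom the difference between transdifferentiated and beta cells was 2.82 (adjusted p = 0.00846).

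The transdifferentiated values of Cacna1g rested on 21 and 28 reads, with exact 95% Poisson intervals of 13.0 to 32.1 and 18.6 to 40.5 reads that cover counting error only. Against them stood 236 to 282 reads in alpha and 20 to 65 reads in beta libraries. On the line between the beta and alpha means the male and female transdifferentiated libraries stood at 88.0% and 64.7%. The call between transdifferentiated and beta cells held in 17 of 21 alternatives and was lost without beta library 3 (1.38, adjusted p = 0.0711), and that between alpha and beta cells held in 21 of 21. Among libraries without the title letter b the levels were 1.47, 1.87 and 0.106 RPKM in transdifferentiated, alpha and beta cells, and with it 1.86 RPKM in alpha and 0.236 RPKM in beta cells. Summed delta cell markers were likewise higher in transdifferentiated (2970 to 3100 RPKM) and alpha (1370 to 3200) than in beta libraries (312 to 891), as were Ppy and Pyy, and their part in the result was not tested.

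Cacna1h (chromosome 17, 25374285 to 25433783, minus strand), another T-type gene, showed the order transdifferentiated over alpha over beta with no overlap between any 2 groups. It had 0.741 and 1.42 RPKM in the male and female transdifferentiated libraries, 0.642, 0.397 and 0.371 RPKM in alpha libraries 1 to 3 and 0.143, 0.254 and 0.157 RPKM in beta libraries 1 to 3. Only the female transdifferentiated library passed 1 RPKM, so the gene was not part of the main fit. With the limit at 0.1 RPKM the log2 difference between transdifferentiated and beta cells was 1.2 (adjusted p = 0.0390), and with no limit it was the same with an adjusted p of 0.0657. By limma voom on reads at the lower limit it was 2.40 (SE 0.48, adjusted p = 0.0188), that between alpha and beta cells was 1.27 (adjusted p = 0.0153, against 0.126 by limma on log2 RPKM at that limit) and that between transdifferentiated and alpha cells 1.13 (adjusted p = 0.125). The transdifferentiated values stood on 9 and 30 reads, and Tpsg1 on the other strand shares 1.62% of the exon bases. Within each of the alpha and beta groups, the library with the highest Sst (2840 RPKM in alpha library 1, 849 RPKM in beta library 2) also had the highest Cacna1h. In transdifferentiated cells it was the other way, with Sst at 2890 RPKM in the male library, which had the lower Cacna1h, and at 2750 RPKM in the female one. The part of delta cell RNA was not tested.

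Cacna1i (chromosome 15, 80287238 to 80398279), the remaining T-type gene, had 0.228, 0.166 and 0.194 RPKM in alpha libraries 1 to 3, against 0.0543, 0.114 and 0.0283 RPKM in beta libraries 1 to 3. These ranges did not overlap. The male and female transdifferentiated libraries held 5 reads and 1 read (0.407 and 0.0468 RPKM), one above all alpha values and one within the beta range. By limma voom at the lower limit the log2 difference between alpha and beta cells was 1.72 (SE 0.57, adjusted p = 0.0325), and by limma on log2(RPKM + 0.5) at that limit 0.25 (adjusted p = 0.392).

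Read without any limit on expression, 3 of the 10 members had both transdifferentiated values above all beta values (Cacna1a, Cacna1g and Cacna1h), where 18.9% of the 26786 genes above 0 in any library did. Both transdifferentiated values exceeded all alpha values for 3 of 10 (Cacna1a, Cacna1d and Cacna1h), where 22.7% of all genes did. All alpha values exceeded all beta values for 6 of 10 (Cacna1b, Cacna1e, Cacna1f, Cacna1g, Cacna1h and Cacna1i), where 20% did, and no member lay the other way in any of the comparisons, where 13.9%, 14.4% and 21.5% of genes did. By limma voom at the lower limit, 8 members were tested. In alpha against beta cells 6 of them were called higher, where 21.8% of 20011 genes were, and in transdifferentiated against beta cells 4 were (Cacna1a, Cacna1e, Cacna1g and Cacna1h), where 8.93% were. Between transdifferentiated and alpha cells 0 were called, where 13.5% of genes were called in either direction. Several members passed the lower limit only through their alpha or transdifferentiated values, so these counts are a description.

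**Figure D2:**
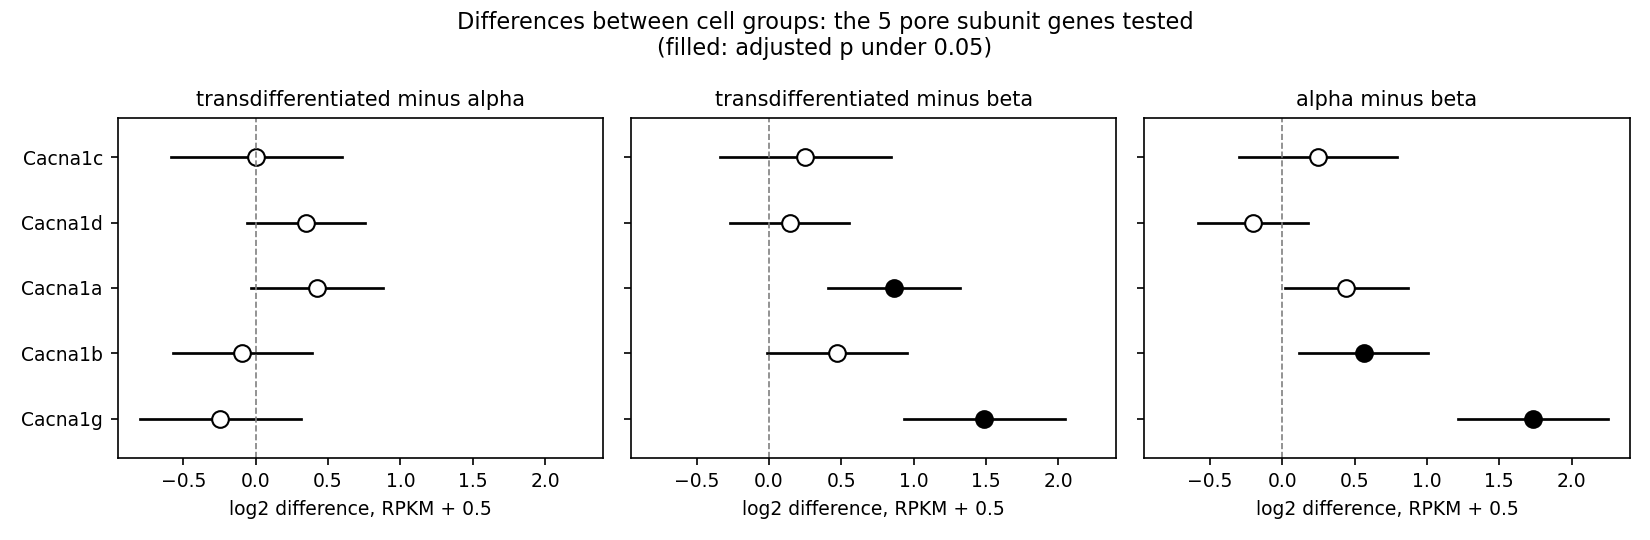
Log2 differences of RPKM + 0.5 (horizontal axis) of the 5 tested members for transdifferentiated minus alpha, transdifferentiated minus beta and alpha minus beta cells; points are limma estimates, bars 95% intervals, and filled points have an adjusted p under 0.05. Filled points are Cacna1a (0.87) and Cacna1g (1.49) against beta in transdifferentiated cells, and Cacna1b (0.56) and Cacna1g (1.73) in alpha against beta cells.

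The order of levels within a group, on the RPKM scale, was led by Cacna1d everywhere. In transdifferentiated cells Cacna1a (12.3 RPKM on average) and Cacna1c (8.15 RPKM) followed without overlap, then Cacna1b (2.36 RPKM), Cacna1g (1.47 RPKM) and Cacna1h (1.08 RPKM), of which Cacna1g and Cacna1h overlapped. In alpha cells the values of Cacna1a (8.87 RPKM) and Cacna1c (8.13 RPKM) overlapped, as did those of Cacna1b (2.37 RPKM) and Cacna1g (1.86 RPKM). In beta cells Cacna1c (7.0 RPKM) and Cacna1a (6.86 RPKM) overlapped, and Cacna1g (0.192 RPKM) and Cacna1h (0.185 RPKM) overlapped far below Cacna1b (1.60 RPKM). Among all genes above 0 in its group, Cacna1d stood at percentile 87.5 in transdifferentiated, 90.0 in alpha and 90.0 in beta cells. Cacna1g stood at percentile 34.4, 57.0 and 35.9 in the same order. The number of genes above 0 was 17701 in transdifferentiated, 24443 in alpha and 23994 in beta cells. Because of this the percentiles place a gene within its group and cannot be compared between groups.

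Summed over the family, the 10 genes gave 49.7 and 46.2 RPKM in the male and female transdifferentiated libraries, 31.1, 41.4 and 45.5 RPKM in alpha libraries 1 to 3 and 34.3, 44.2 and 31.4 RPKM in beta libraries 1 to 3. L-type genes took 65.9% and 61.2% of that sum in transdifferentiated, 62.1%, 66.0% and 65.5% in alpha and 76.8%, 74.2% and 76.5% in beta libraries. The beta shares thus lay above all others. The T-type share was 5.66% and 5.92% in transdifferentiated, 8.80%, 6.37% and 4.88% in alpha and 0.884%, 1.51% and 1.14% in beta libraries, and the transdifferentiated values fell within the alpha range. P/Q-, N- and R-type genes took 28.5% and 32.9%, 27.6% to 29.6% and 22.3% to 24.3% in the same order of groups. Cacna1d alone took 48.1% and 44.7% in transdifferentiated, 43.5% to 44.1% in alpha and 54.3% to 58.3% in beta libraries. Counted in recovered reads, the mean L-type share was 66.2%, 68.3% and 77.6% and the mean T-type share 4.84%, 5.48% and 0.976% in transdifferentiated, alpha and beta cells, with the same separation of beta cells. A share is set by all 10 genes, so a higher share of one class needs no higher level of it.

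**Figure D3:**
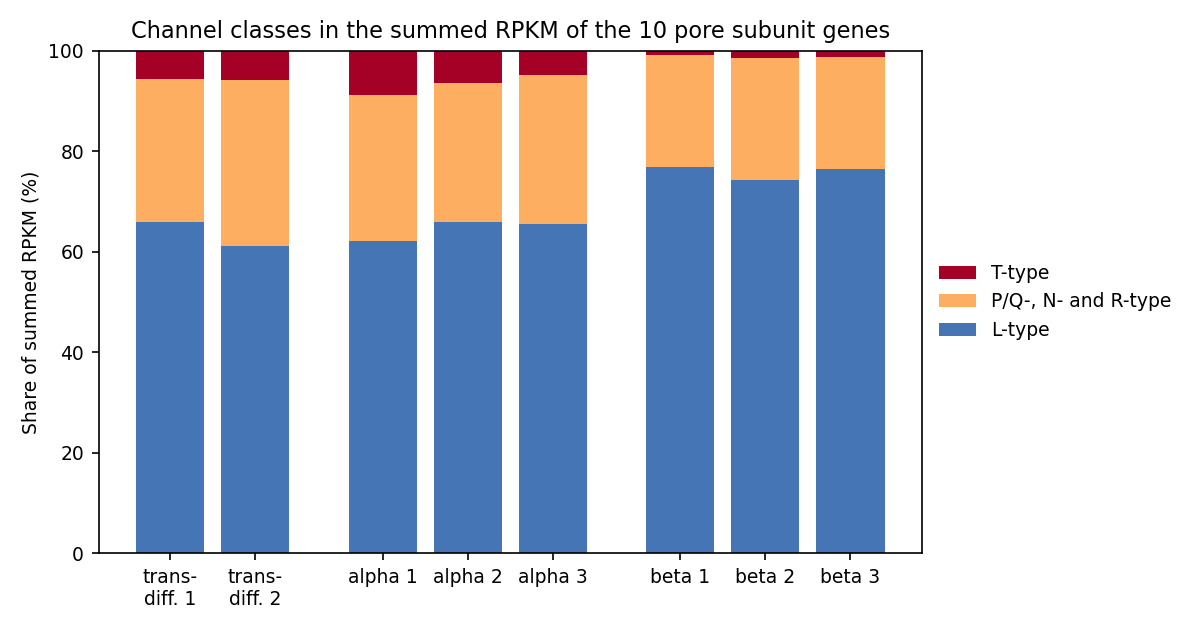
Share of each channel class (percent of the summed RPKM of the 10 genes, vertical axis) in each library, stacked from L-type at the bottom to T-type at the top. The T-type band is 4.88% to 8.80% in transdifferentiated and alpha libraries and at most 1.51% in beta libraries.

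Sex was compared as a term over all groups, with 4 male and 4 female libraries. Whether the libraries of 1 sex came from separate pools of animals is not known here, so sex and pool may not be separable. Of the 5 members tested, 0 were called (0.0456% of all genes were), and the count was likewise 0 at an unadjusted p under 0.05 and by limma voom. The log2 difference of male minus female was between -0.34 (Cacna1b, adjusted p = 0.843) and 0.13 (Cacna1g, adjusted p = 0.898), with 4 of the 5 below 0.

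The genes whose pattern over the 8 libraries was most like that of a called member were taken by Pearson correlation of log2(RPKM + 0.5) among all genes tested, given here without a test since the libraries cluster by group. For Cacna1g they included Pak7 (r = 0.997) and Ffar4 (0.994). For Cacna1a they were Zfp612 (0.989), Gm43039 (0.987) and Arhgap21 (0.986), and for Cacna1b they were Rbm12 (0.98), Nudt21 (0.978) and Rpl31 (0.976).

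The pore is only one component of these channels. Intracellular channel beta subunits (Cacnb genes) bring the pore to the membrane, extracellular subunits (Cacna2d genes) anchor and stabilise it, and the Cacng family holds a muscle channel subunit together with relatives that mainly serve glutamate receptors. Of 16 auxiliary genes 7 were tested. In transdifferentiated against beta cells 3 were higher and 0 lower, with a median log2 difference of 0.78, and against alpha cells 0 were higher and 3 lower, with a median of -0.16. In alpha against beta cells 5 were higher and 0 lower, with a median of 0.99. Of all genes tested, 12%, 29.9% and 43.6% were called in these comparisons, and 75.8%, 77.6% and 38.8% of those called were higher. Cacna2d4, Cacng4 and Cacng7 were under 1 RPKM in every beta library and entered the test through other groups, so the counts and medians lean towards lower values in beta cells and are a description.

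Cacnb3 and Cacnb1 were higher in transdifferentiated than in beta cells. Cacnb1 measured 6.56 and 6.11 RPKM in transdifferentiated, 4.96, 6.51 and 6.25 RPKM in alpha and 2.35, 2.69 and 2.99 RPKM in beta libraries, so that the beta libraries stood apart below. Its log2 difference from beta cells was 1.10 (SE 0.16, adjusted p = 0.0111) in transdifferentiated and 0.99 (SE 0.15, adjusted p = 0.00183) in alpha cells. Cacnb3, the most abundant channel beta subunit gene here, measured 39.4 and 37.3 RPKM in transdifferentiated, 33.7, 30.3 and 31.7 RPKM in alpha and 20, 23.4 and 28.6 RPKM in beta libraries, with no overlap between groups. Its difference from beta cells was 0.65 (adjusted p = 0.0244) in transdifferentiated and 0.36 (adjusted p = 0.0429) in alpha cells, and these calls held in 10 and 12 of 22 alternatives.

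By contrast, 3 auxiliary genes high in alpha cells were lower in transdifferentiated cells. For Cacna2d4 and Cacng7, which passed the expression limit through their alpha values, that direction is partly fixed by the limit. Cacng4 stood at 1.57 and 1.16 RPKM in transdifferentiated, 7.26, 6.69 and 6.13 RPKM in alpha and 0.240, 0.301 and 0.156 RPKM in beta libraries. No ranges overlapped, and its log2 difference was -1.94 (SE 0.20, adjusted p = 0.000618) between transdifferentiated and alpha, 1.34 (SE 0.20, adjusted p = 0.0114) between transdifferentiated and beta and 3.28 (SE 0.18, adjusted p = 2.18e-05) between alpha and beta cells. Cacna2d4 stood at 0.763 and 0.633 RPKM, 2.42 to 2.5 RPKM and 0.130 to 0.250 RPKM in transdifferentiated, alpha and beta libraries, with a difference of -1.30 (adjusted p = 0.00496) between transdifferentiated and alpha and 2.08 (adjusted p = 0.000254) between alpha and beta cells. Cacng7 had 0 and 1.32 RPKM (0 and 7 reads) in transdifferentiated, 2.19 to 3.02 RPKM in alpha and 0.0286 to 0.0766 RPKM in beta libraries. Its difference was -1.79 (adjusted p = 0.0182) between transdifferentiated and alpha and 2.70 (adjusted p = 0.00160) between alpha and beta cells. The call of Cacng7 against alpha cells held in 17 of 21 alternatives. Cacna2d1, the most abundant Cacna2d gene, had 25.4 and 17.4 RPKM in transdifferentiated, 13.9 to 18.1 RPKM in alpha and 15.5 to 21.6 RPKM in beta libraries and was called in no comparison.

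**Figure D4:**
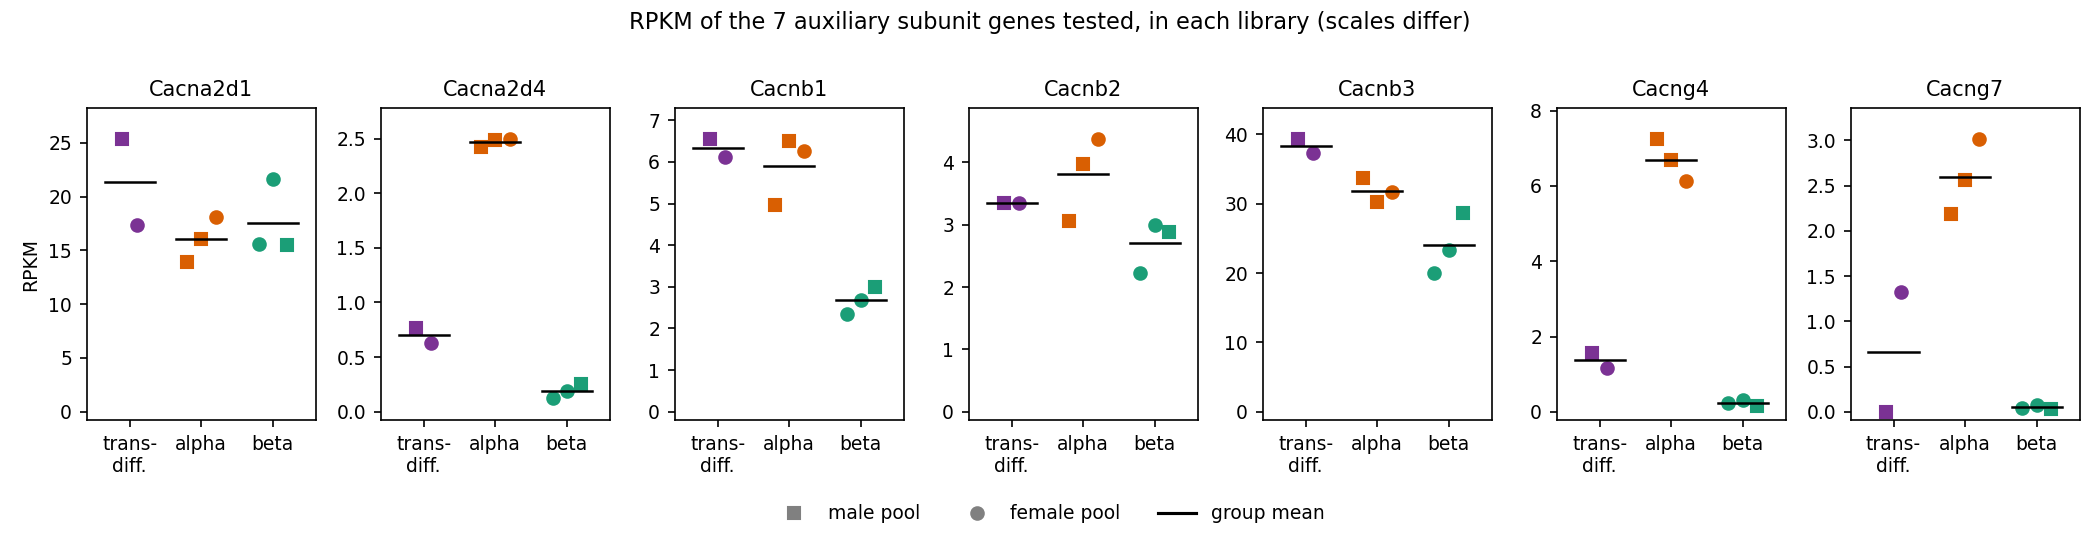
RPKM (vertical axes, each from 0 on its own scale) of the 7 auxiliary subunit genes tested in the transdifferentiated, alpha and beta libraries; squares are male pools, circles female pools, lines group means. Cacnb1 lies at 4.96 to 6.56 RPKM in transdifferentiated and alpha libraries and at most at 2.99 RPKM in beta libraries, while Cacng4 lies at 1.16 to 1.57 RPKM in transdifferentiated and 6.13 to 7.26 RPKM in alpha libraries.

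Of 24 genes for proteins that bind or regulate the channels, 15 were tested. In transdifferentiated against beta cells 1 was higher and 0 lower (median 0.10), against alpha cells 4 were higher and 3 lower (median -0.03), and in alpha against beta cells 5 were higher and 4 lower (median 0.33). These are 1, 7 and 9 of 15 called, beside the 12%, 29.9% and 43.6% of all genes. Rimbp2, a presynaptic protein that links calcium channels to the release machinery, was the one higher than in beta cells, at 60.4 and 48.7 RPKM in transdifferentiated, against 23.8, 33.0 and 29.4 RPKM in beta libraries (log2 difference 0.92, SE 0.19, adjusted p = 0.0265). That call held in 14 of 22 alternatives. Cabp1, a calcium-binding protein that modulates L- and P/Q-type channels, was higher in transdifferentiated than in alpha cells, at 7.16 and 6.80 RPKM against 0.372 to 0.414 RPKM (3.05, SE 0.15, adjusted p = 3.39e-05), and lower in alpha than in beta cells, where it stood at 7.58 to 9.98 RPKM (-3.34, adjusted p = 5.33e-06). Stac2, an adaptor of L-type channels, had 0.256 and 0.882 RPKM in transdifferentiated, 5.11 to 6.17 RPKM in alpha and 0.253 to 0.289 RPKM in beta libraries; it was lower in transdifferentiated than in alpha cells (-2.57, adjusted p = 0.000785) and higher in alpha than in beta cells (3.01, adjusted p = 0.000140). Cabp1 passed the expression limit without its alpha libraries, and Stac2 only through them. Gem, a small GTPase that inhibits calcium channels, was higher in transdifferentiated than in alpha cells (1.34, adjusted p = 0.0122) and lower in alpha than in beta cells (-1.0, adjusted p = 0.0193). Camk2d, a calmodulin-dependent kinase subunit, was lower in transdifferentiated than in alpha cells (-0.80, adjusted p = 0.0184) and higher in alpha than in beta cells (1.07, adjusted p = 0.00276). The Camk2d call against alpha cells was lost in 7 of 22 alternatives (highest adjusted p = 0.0969), and each of the Gem calls in 4 of 22.

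Calcium that has entered is pumped out, stored and released again by other proteins. Of 25 genes for these 19 were tested: in transdifferentiated against beta cells 2 were higher and 2 lower (median -0.09), against alpha cells 7 were higher and 1 lower (median 0.32), and in alpha against beta cells 2 were higher and 8 lower (median -0.23). In alpha against beta cells 10 of 19 called is near the 43.6% of all genes, and in transdifferentiated against alpha cells most called genes of the whole table were likewise higher (77.6%). The values of Atp2a2 and Atp2a3, the pumps that fill the endoplasmic reticulum with calcium, lay between those of the other groups in transdifferentiated cells. Atp2a2 stood at 208 RPKM in both transdifferentiated libraries, 71.6 to 81.7 RPKM in alpha and 298 to 427 RPKM in beta libraries, a log2 difference of 1.40 (adjusted p = 0.000594) from alpha and -0.74 (adjusted p = 0.0223) from beta cells in transdifferentiated cells. The call against beta cells was lost in 7 of 22 alternatives (highest adjusted p = 0.139). Atp2a3 stood at 102 and 101 RPKM, 46.7 to 54.0 RPKM and 155 to 165 RPKM in transdifferentiated, alpha and beta libraries, and was lower in transdifferentiated than in beta cells by a log2 difference of -0.66 (adjusted p = 0.00975). Itpr1, a release channel of the endoplasmic reticulum, stood at 11.9 and 9.18 RPKM in transdifferentiated, 22.8 to 24.4 RPKM in alpha and 2.44 to 3.98 RPKM in beta libraries. Its difference was -1.12 (adjusted p = 0.00668) between transdifferentiated and alpha and 1.65 (adjusted p = 0.00643) between transdifferentiated and beta cells. Its relative Itpr2 was higher in transdifferentiated than in alpha cells (1.62, adjusted p = 0.00214), as was the store sensor Stim1 (1.46, adjusted p = 0.000255). Itpr2 was at 0.166 to 0.283 RPKM in alpha libraries and passed the expression limit only through the other groups. Its lower alpha value was thus partly fixed by the limit. Atp2b4, a plasma membrane pump, was higher in transdifferentiated than in beta cells (1.02, adjusted p = 0.0128).

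Of 7 related channel genes 5 were tested. Nalcn, a sodium leak channel of the same superfamily, had 9.83 and 9.08 RPKM in transdifferentiated, 11.9, 12.6 and 13.9 RPKM in alpha and 6.23, 7.38 and 5.75 RPKM in beta libraries, with no overlap between groups. Its log2 difference was 0.54 (adjusted p = 0.0353) between transdifferentiated and beta, -0.44 (adjusted p = 0.0356) between transdifferentiated and alpha and 0.98 (SE 0.11, adjusted p = 0.000608) between alpha and beta cells. The call between transdifferentiated and beta cells held in only 8 of 22 alternatives (highest adjusted p = 0.171) and that between transdifferentiated and alpha cells in 11 of 22 (highest adjusted p = 0.143), while that between alpha and beta cells held in 22 of 22. Catsper4, known as a sperm channel, was higher in transdifferentiated than in alpha cells (1.23, adjusted p = 0.00808), on 5 and 10 reads in the transdifferentiated libraries. It was at 0.295 to 0.844 RPKM in alpha libraries and passed the expression limit only through the other groups. That direction is therefore partly fixed by the limit. Catsper2 was higher in alpha than in beta cells (0.87, adjusted p = 0.0104).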

How the data were processed

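RNA of 8 sorted islet cell libraries was sequenced after preparation with Illumina's TruSeq RNA kit v2, per the labels' protocols. The authors deposited RPKM per gene and library. The submitters' processing notes name build GRCm38.p4 with STAR 2.5, featureCounts and edgeR 3.14.0; for the annotation and the strand setting, nothing is given in the sources used here. No separate deposited count table was used. Reads were recovered from the RPKM steps with GENCODE M21 exon lengths: of 25353 genes above 0 with such a length, 78.5% came out whole in all 8 libraries within 0.01 of a read, and lengths of 6875 genes were solved from their own steps. The recovered depth was 1244232 to 21395333 reads per library; intervals and floors (3 reads) cover counting error only.

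The main test was limma 3.58.1 (R 4.3.3, eBayes with a trend) on log2(RPKM + 0.5), over 13172 genes with at least 1 RPKM in at least 2 libraries. Terms were cell group and sex, the test was two-sided with Benjamini-Hochberg adjustment over all genes, and an adjusted p under 0.05 was a call. The 4 contrasts were the 3 pairs of cell groups and male minus female. Fold changes on this scale understate those of low genes. The tests were tried on simulated data. Alternatives were other pseudocounts (0.1, 1), limits (none, 0.1, 5 RPKM), scalings, model terms and weights, limma voom on recovered reads, each library left out and 2 alternatives added after the data were seen.

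The members and gene lists were chosen with earlier results of these data known. All 10 members are named, every called auxiliary gene, the called genes with the 4 largest differences of each other list and comparison, and the 3 genes most like each called member, of which 1 is not reported here; Ryr3, in the closing section, was chosen after its values were seen. Replicates are libraries of separate labels, but beta libraries 1 and 2, and alpha libraries 1 and 2, share a number in their titles, so some of the spread behind the p-values may be technical. Proteins of the members were not analysed here.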

Additional observations from a re-analysis of the deposited data

Results flagged for a closer look

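Several members moved in opposite directions in male and female pools when transdifferentiated cells were set against another group. The difference between sexes was not tested in any of these cases, and each rests on 1 transdifferentiated library per sex. The share of all genes with such opposite directions is not given here, so the pattern cannot be called unusual. For Cacna1b the male transdifferentiated library lay below the male alpha libraries (1.70 against a mean of 2.30 RPKM) and the female one above the female alpha library (3.02 against 2.49 RPKM), so the difference in males minus that in females was -1.13 RPKM.

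The same was seen in members at the counting limit. For Cacna1e against beta cells the male value was 0 against 0.00281 RPKM and the female value 0.130 against 0.00767 RPKM (-0.125 RPKM between sexes). For Cacna1f the male transdifferentiated library was at 0 and the female one at 0.152 RPKM (3 reads), which gave -0.15 RPKM against beta and -0.154 RPKM against alpha cells. For Cacna1i the direction was the other way, with 0.407 RPKM (5 reads) in the male and 0.0468 RPKM (1 read) in the female transdifferentiated library, which gave 0.416 RPKM against beta and 0.358 RPKM against alpha cells.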

How the results depend on the processing

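The number of members called moved with the processing. In transdifferentiated against beta cells, 2 members were called. The count was 1 without an expression limit or with a limit of 5 RPKM, and 3 with a limit of 0.1 RPKM (Cacna1h added). It was 0 with array weights, in a fit of only the 2 groups or with libraries of a shared title number averaged. By limma voom at a limit of 0.1 RPKM it was 4, and with any 1 library left out 0 to 2 (0 without beta library 3). In alpha against beta cells, 2 were called. The count was 1 with a pseudocount of 1, without an expression limit, with a limit of 0.1 RPKM, without the sex term or with shared title numbers averaged. It was 0 with a limit of 5 RPKM (which removes Cacna1b and Cacna1g), 6 by limma voom at 0.1 RPKM, and 1 to 2 with any 1 library left out. With array weights, median-ratio scaling or limma voom at the main limit it was 3 (Cacna1a added). Under quantile normalization, with the title letter b as a term or without beta library 2, the 2 called were Cacna1a and Cacna1g. In transdifferentiated against alpha cells, 1 (Cacna1a, 0.64, adjusted p = 0.0450) was called with the title letter b as a term and 0 under every other alternative. The averaged and low-limit voom alternatives were added after the data were seen. No called difference of a member changed direction in the alternatives run. Cacna1g in alpha against beta cells was called in 21 of 21 (1.23 to 3.33). Cacna1a in alpha against beta cells, not called in the main fit, was called in 7 of 22. Median-ratio scaling moved the median of all genes to -0.03, against 0.09, between transdifferentiated and beta cells and to -0.04, against 0.17, between transdifferentiated and alpha cells. It moved the share of higher among called genes to 52.7%, against 75.8%, and to 51.5%, against 77.6%, and between alpha and beta cells to 50%, against 38.8%. Under it Cacna1a was at 0.74 (adjusted p = 0.0384) and Cacna1g at 1.38 (adjusted p = 0.0164) in transdifferentiated against beta cells. Over all genes, 1580, 3932 and 5743 were called in transdifferentiated against beta, transdifferentiated against alpha and alpha against beta cells. With array weights the first was 163 and the second 1990, in a fit of only the 2 groups 283 and 2366, and by limma voom at the main limit 748 and 1946; the first was 877 without a limit and 539 with shared title numbers averaged, and the third was 8640 by limma voom at 0.1 RPKM. With any 1 library left out, calls numbered 235 to 1649 in transdifferentiated against beta cells, 2447 to 3735 against alpha cells and 3117 to 6609 in alpha against beta cells. No paired analysis was run. No title number is shared between cell groups, but whether the groups of 1 sex were sorted from the same animals is not known here. Sex, present in both forms in every group, was a term of the main fit, and the title letter b was fitted as an alternative. The depth of the transdifferentiated libraries limits the low members: 1 read of Cacna1g was worth 0.0793 and 0.0455 RPKM there, against 0.00764 or less in the other libraries.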

Other observations

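Ryr3, a calcium release channel of the endoplasmic reticulum, is a calcium handling gene below the expression limit. It stood at 0.545 and 0.496 RPKM (12 and 19 reads) in transdifferentiated, 0.0569 to 0.0923 RPKM (13 to 23 reads) in alpha and 0.0355 to 0.129 RPKM (9 to 49 reads) in beta libraries. It was not tested and was chosen after its values were seen.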
